A study of Mus musculus with 18 samples.

Results

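The response of cardiomyocytes to myocardial infarction in control mice was read from 6 of the 18 libraries of the series, 3 from infarcted and 3 from sham-operated hearts, and is described across all 11393 genes expressed well enough to be tested. The RNA came from translating ribosome affinity purification (TRAP), in which tagged ribosomes are pulled down together with the messages they carry, and the labels call it specific to cardiomyocytes. The mice were adults of 8 to 10 weeks at surgery, the infarction was made by tying off the left anterior descending coronary artery, and RNA was taken 6 weeks later. The genotype of both groups is labelled control, or wild type control; the labels name neither the promoter that drives the ribosome tag nor any Cre allele these mice carry. Mice labelled Salv cKO, a conditional knockout of Salvador (encoded by Sav1, a scaffold protein of Hippo signalling), gave 3 infarcted and 3 sham TRAP libraries that entered the same fit and serve as a comparison. Sav1 stood at 4.95 ± 1.28 (infarcted) and 4.03 ± 4.15 CPM (sham; SD, n = 3 each) in the libraries labelled Salv cKO, against 5.55 ± 1.16 and 6.31 ± 1.22 CPM in control, so that its level over the whole gene does not set these libraries apart from control; which exons were deleted is not stated in the labels. The 3 whole-heart total RNA libraries of infarcted control mice were used to check cell type markers and the levels of genes that rose. Nothing in the labels states that replicates come from different animals; the p-values therefore reflect only how far these libraries vary, which may be technical.

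When a coronary artery is tied off, the muscle it feeds dies and is replaced by a scar of collagen, and the surviving cardiomyocytes work against a larger load. In rodents these cells are known for switching on genes of the fetal heart, among them the natriuretic peptides Nppa and Nppb and the slow myosin heavy chain Myh7. They are also known for lowering the genes that burn fatty acids, which the nuclear receptor encoded by Ppara turns on together with the coactivators encoded by Ppargc1a and Ppargc1b.

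The infarcted libraries held 6706118, 6449748 and 5916285 counts and the sham libraries 3526334, 3752980 and 15902590, so that 3 counts in a library, taken as the limit of detection, stand for 0.189 to 0.851 CPM (counts scaled to a common library total). The 16 cardiomyocyte identity genes made up 158000 to 172000 CPM of the infarcted and 143000 to 156000 CPM of the sham TRAP libraries, against 57600 to 69100 CPM of the total RNA of infarcted hearts. Genes of the mitochondrial genome, which cytosolic ribosomes do not translate, held 0.202 to 0.342% of the counts in these 6 TRAP libraries and 15.8 to 29% of the counts in control total RNA. Sham library 2 stood apart. Its mean rank correlation was 0.954 with the infarcted libraries and 0.945 with the other sham libraries, whereas sham libraries 1 and 3 correlated at 0.942 and 0.94 with the infarcted libraries and at 0.953 and 0.949 with the other sham libraries. It also held 567 counts of Y chromosome genes, of which the other 5 libraries held 0 to 7. Its summed fibroblast and matrix genes reached 8610 CPM, against 3970 and 3340 CPM in sham libraries 1 and 3 and 6090 to 7590 CPM after infarction. Results that rest on this library are therefore given with and without it. It was singled out by its likeness to the infarcted libraries in these same data, so leaving it out favours larger differences. A gene that passed only without it gained no independent support.

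More genes fell than rose after infarction in control cardiomyocytes. At a Benjamini-Hochberg adjusted p below 0.05 in edgeR's quasi-likelihood test, 10 genes rose (0.0878% of the 11393 tested) and 113 fell (0.992%). Adjusted p values of the 123 genes ran from 0.0254 to 0.0496, and 1604 genes had an unadjusted p below 0.05. The fallen genes had a median log2 fold change of -1.19, that is 2.29-fold lower, with a range of -2.58 to -0.78, while the genes that rose ran from 0.78 to 5.41. All 10 genes that rose had every infarcted library above every sham library, as had 958 of all genes (8.41%). Of the 113 that fell, 111 had every infarcted library below every sham library, as had 1215 of all genes (10.7%); Rsbn1l and Pitpnc1, named here after their values were seen, were the pair that overlapped. Without sham library 2, 125 genes rose and 503 fell, and all 123 genes passed. Without sham library 3, the deepest, none passed, although all 123 kept their direction and had an unadjusted p of at most 0.0272. The 123 genes were chosen in a fit that held the same remaining libraries, so this is no independent support.

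**Figure D1:**
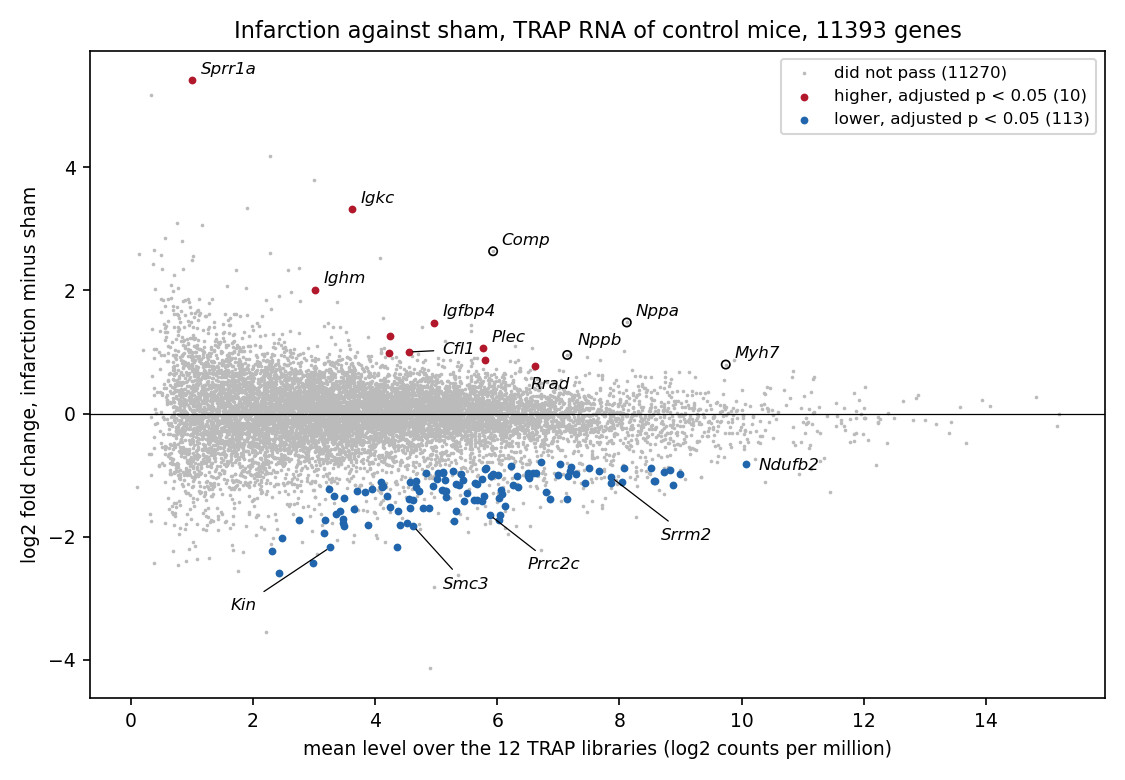
Log2 fold change of infarction against sham in control TRAP RNA (vertical axis) against the mean level over the 12 TRAP libraries in log2 CPM (horizontal axis), 1 point a gene. The 113 genes that fell (blue) lay between -2.58 and -0.78 at levels from low to high, the 10 that rose (red) lay between 0.78 and 5.41, and open circles mark Nppa, Nppb, Myh7 and Comp, which did not pass.

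The gene with the highest fitted fold change among those that rose was Sprr1a, a small proline-rich protein first known from the cornified envelope of skin and also induced in stressed cardiomyocytes. Its level was below the minimum set for naming genes, and it was chosen after its values were seen. It gave 15, 23 and 19 counts in the infarcted libraries and 0, 1 and 0 in the sham libraries, so that nearly all of its reads came from infarcted hearts. Pooled over each group the ratio was 69.3, with an exact 95% interval of 11.9 to 2780 that covers counting error only. The fitted log2 fold change of 5.41 ± 1.15 (SE, adjusted p = 0.0391) depends on the prior count at such low levels. With no or 1 count in each sham library, the gene entered the tested set only through the infarcted libraries, so that its test is no independent support.

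Genes of blood and immune origin came next. Levels of single genes in TRAP RNA are given here as CPM scaled by the trimmed mean of M-values (TMM). Igkc is the constant region of the kappa light chain of antibodies. It stood at 31.9, 11.4 and 48.6 CPM after infarction and at 1.93, 6.01 and 1.88 CPM after sham. Its log2 fold change was 3.32 ± 0.57 (SE, adjusted p = 0.0391). Ighm, the constant region of the antibody mu heavy chain, stood at 14.1, 9.01 and 20 CPM against 4.18, 4.51 and 2.53 CPM, a log2 fold change of 2.01 ± 0.45 (SE, adjusted p = 0.0391). Both genes are made by B cells and plasma cells, not by cardiomyocytes. Of 24 B and plasma cell markers 9 were tested, these 2 rose (0.0878% of all genes did) and none fell. Their list's median log2 fold change was 1.54 against -0.02 over all genes. The median was 0.46 without infarcted library 3, 1.07 without infarcted library 1 and 0.95 to 1.47 at equal depth. Markers also differed among themselves. Xbp1, Sdc1 and Mzb1 had 479, 128 and 32 counts over the infarcted and 644, 158 and 35 over the sham libraries, while Igha had 259 against 37. These counts are not scaled for depth, and the infarcted libraries held 19072151 counts in all against 23181904 in the sham libraries. They therefore show no fall of Xbp1, Sdc1 or Mzb1. The fitted log2 fold change of Xbp1, which is scaled, was -0.13 (adjusted p = 0.88). The list's summed level was 146, 67.0 and 147 CPM after infarction and 47.6, 60.8 and 48.8 CPM after sham, and in total RNA of infarcted hearts it was 172 to 477 CPM. Some markers were picked after their values were seen. Jchain had 57 counts over the infarcted and 8 over the sham libraries, and Ighg1 had 47 (0 in infarcted library 2) and 1. Other markers of B cells did not rise together: Blk had 71 counts in either group and Cd79b had 27 over the infarcted and 13 over the sham libraries. Cd79a, Pax5, Ighd, Ms4a1 and Cd22 had 0, 1, 0, 1 and 5 counts over the infarcted libraries. Over the sham libraries they had 1, 9, 8, 4 and 0, too few to give a direction. All 160 counts of Ighg3 came from infarcted library 1. The part of RNA from other cells in the rise of Igkc and Ighm was not tested.

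Growth factor signalling and the cytoskeleton gave the next genes. Igfbp4, a secreted protein that binds insulin-like growth factors, stood at 56.5, 31.7 and 49.7 CPM after infarction and at 10.9, 23.3 and 15.2 CPM after sham. The lowest infarcted library lay above the highest sham library, and the log2 fold change was 1.48 ± 0.29 (SE, adjusted p = 0.0391), or 2.78-fold. Plec, the giant cytolinker plectin that ties desmin filaments to Z-discs and costameres, stood at 81.2, 82.9 and 61.0 CPM against 30.5, 45.1 and 32.1 CPM (log2 fold change 1.07 ± 0.24 SE, adjusted p = 0.0391). Cfl1, the actin-severing protein cofilin, stood at 40.6, 26.1 and 31.6 CPM against 14.8, 20.5 and 14.3 CPM. Its log2 fold change was 1.0 ± 0.24 (SE, adjusted p = 0.0496), and its transcript has a copy of at least 95% identity in the annotation, between which the counting may have split reads.

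Rrad, a small G protein that restrains the L-type calcium channel, rose by a smaller factor at a higher level. Its values were 134, 121 and 108 CPM after infarction and 77.8, 67.1 and 67.1 CPM after sham, with a log2 fold change of 0.78 ± 0.16 (SE, adjusted p = 0.0391), or 1.71-fold. It was the one gene to rise both among 27 cardiac stress genes and among 37 calcium handling genes. Gmpr, which turns GMP into IMP in purine salvage, had a very even sham group of 41.5, 42.8 and 43.8 CPM against 82.2, 82.9 and 68.7 CPM after infarction (log2 fold change 0.87 ± 0.20 SE, adjusted p = 0.0442). Dda1, a component of ubiquitin ligases built on DDB1, and Iah1, an esterase, rose with log2 fold changes of 1.26 and 0.99 (adjusted p = 0.0442 and 0.0391). Exons of Rrad, Gmpr, Dda1 and Iah1 overlap those of a gene on the opposite strand. Sham library 2 was the highest of the sham libraries in 8 of the 10 genes that rose (4027 of all 11393). Mean levels in total RNA of infarcted control hearts (CPM of the library total) were set beside those in infarcted TRAP RNA. Igfbp4, Plec and Cfl1 stood at 137, 219 and 92.9 against 46, 75 and 32.8 CPM. Sprr1a, Gmpr and Dda1 stood at 8.43, 120 and 34.2 against 2.92, 77.9 and 28.9 CPM. Iah1 stood at 27.9 CPM in both, and Rrad at 96.7 against 121 CPM. The part of RNA from other cells in these rises was not tested.

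**Figure D2:**
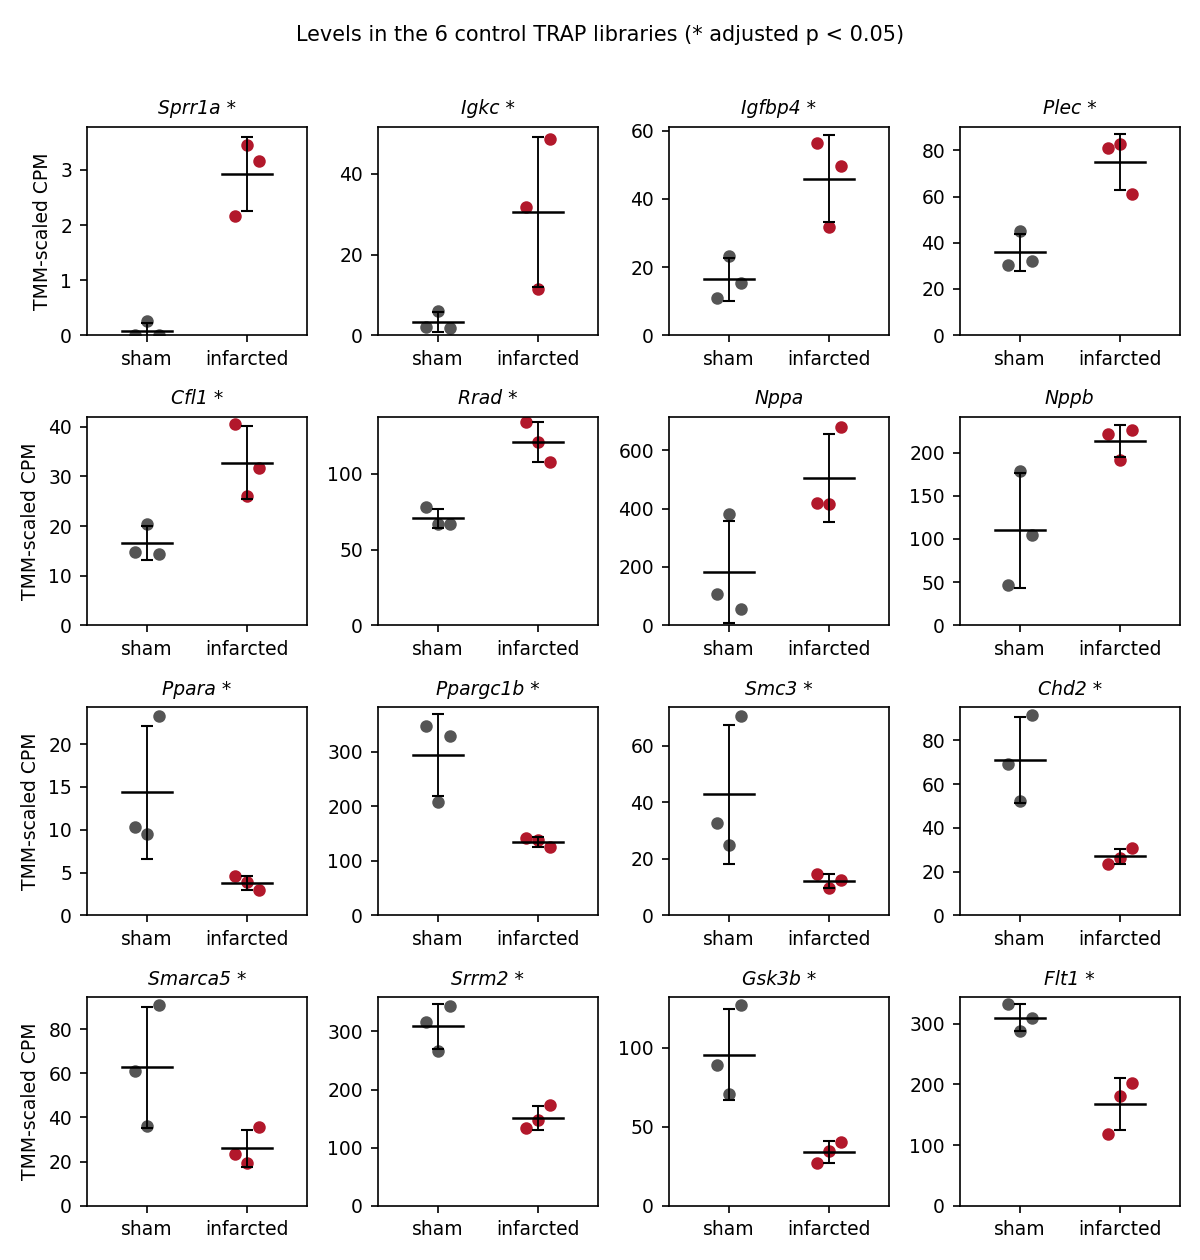
TMM-scaled CPM of 16 genes in the 3 sham (grey) and 3 infarcted (red) control TRAP libraries; points are libraries, the line is the mean and the bar the SD, and an asterisk marks an adjusted p below 0.05. The middle sham point, library 2, lies nearest the infarcted group in Nppa (382 CPM) and Ppargc1b (208 CPM), and no group overlaps in any of the 16 genes.

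The stretch around the transcription start is shown for 4 genes that the results turn on, a pair that rose (Sprr1a and Igfbp4) and a pair that fell (Ppara and Smc3). The windows run from 250 bases before to 50 bases after the start, are from RefSeq on GRCm38.p6 (the assembly of mm10), and are printed 5′ to 3′ on the strand of the gene. They are chr3:92485832-92486131 on the minus strand for Sprr1a and, on the plus strand, chr11:99040994-99041293 for Igfbp4, chr15:85735526-85735825 for Ppara and chr19:53600146-53600445 for Smc3. Capitals mark matches on either strand to the TATA box TATAAA, the CCAAT box CCAAT, the GC box GGGCGG, the AP-1 site TGANTCA or the CATTCC element of TEAD factors, searched on both strands; matches to different motifs may overlap.
Sprr1a: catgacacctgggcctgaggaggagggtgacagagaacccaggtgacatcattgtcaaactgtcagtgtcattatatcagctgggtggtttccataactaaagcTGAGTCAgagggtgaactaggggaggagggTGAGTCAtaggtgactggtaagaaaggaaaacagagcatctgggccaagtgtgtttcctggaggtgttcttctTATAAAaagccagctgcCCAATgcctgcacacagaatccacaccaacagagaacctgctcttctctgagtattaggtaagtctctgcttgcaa
Igfbp4: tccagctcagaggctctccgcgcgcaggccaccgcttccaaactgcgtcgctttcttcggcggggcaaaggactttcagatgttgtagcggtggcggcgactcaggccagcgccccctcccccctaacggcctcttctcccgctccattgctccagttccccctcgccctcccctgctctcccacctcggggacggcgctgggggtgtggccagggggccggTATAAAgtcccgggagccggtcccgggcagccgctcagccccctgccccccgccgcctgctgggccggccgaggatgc
Ppara: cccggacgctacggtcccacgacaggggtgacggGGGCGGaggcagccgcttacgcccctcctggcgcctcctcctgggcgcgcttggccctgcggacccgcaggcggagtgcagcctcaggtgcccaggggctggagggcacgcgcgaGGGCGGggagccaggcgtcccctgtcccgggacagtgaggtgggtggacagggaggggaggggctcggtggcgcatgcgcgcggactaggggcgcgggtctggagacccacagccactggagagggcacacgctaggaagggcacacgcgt
Smc3: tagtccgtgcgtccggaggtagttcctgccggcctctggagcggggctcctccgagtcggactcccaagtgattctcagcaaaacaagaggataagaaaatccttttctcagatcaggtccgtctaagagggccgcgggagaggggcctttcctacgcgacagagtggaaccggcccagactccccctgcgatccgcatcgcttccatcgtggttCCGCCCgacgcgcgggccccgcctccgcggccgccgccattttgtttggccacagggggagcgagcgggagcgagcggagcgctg

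Sprr1a and Igfbp4 carried a TATA box upstream of the start, and Sprr1a carried 2 AP-1 sites and a CCAAT box besides. The windows of Ppara and Smc3 held GC boxes and none of the other letters searched. A RefSeq window was found for 6 of the 10 genes that rose, 94 of the 113 that fell and 8804 of the 11393 tested. The TATA box was present in 2 of the 6, 8 of the 94 (8.51%) and 8.64% of all tested genes with a window, and the AP-1 site in 1 of the 6, 6 of the 94 (6.38%) and 6.25%. Sprr1a and Igfbp4 were these 2, and Sprr1a was the 1 with an AP-1 site, so that the other genes that rose held neither. Of the 6 genes that rose, 4 held a GC box, 3 a CCAAT box and 1 a CATTCC element. Among the genes that fell, the shares with a CCAAT box (44.7%), a GC box (62.8%) and a CATTCC element (17%) stood beside 42.6%, 70.2% and 14.6% of all tested genes. These are descriptions of letters in a window, not of sites in use.

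The best known markers of cardiac stress were high after infarction but did not pass. Nppa stood at 418, 416 and 680 CPM after infarction and at 107, 382 and 57.2 CPM after sham. The groups did not overlap, yet sham library 2 came within reach of the infarcted libraries, and the log2 fold change of 1.48 ± 0.81 (SE) had an adjusted p of 0.48. Nppb stood at 222, 192 and 226 CPM against 46.3, 179 and 105 CPM, with the same sham library highest (log2 fold change 0.95, adjusted p = 0.636). Myh7 overlapped, with 1330, 957 and 1590 CPM against 567, 1330 and 345 CPM (log2 fold change 0.80, adjusted p = 0.474). The fast alpha myosin heavy chain of the adult rodent heart, Myh6, ranged more widely in the sham group, from 7160 to 26000 CPM, than after infarction, from 16400 to 21000 CPM, and its log2 fold change was 0.11 ± 0.49 (SE, adjusted p = 0.951). Transcripts of Myh6 and Myh7 are at least 95% identical over at least 50% of the shorter one, so that reads may be shared.

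Over the 27 cardiac stress genes tested, 1 rose, none fell, 22 had a positive log2 fold change and 9 had infarcted libraries above all sham libraries (8.41% of all genes did). The median was 0.41 against -0.02 over all genes. The list's median deviation from each gene's mean was 0.15, 0.29 and 0.23 in the infarcted libraries, -0.45 and -0.34 in sham libraries 1 and 3, and 0.18 in sham library 2, which thus overlapped the infarcted group. Without sham library 2, 6 of 28 tested rose (125 over all genes) and the median was 0.68. Myh7 then passed with a log2 fold change of 1.5 (adjusted p = 0.00289), while Nppa (2.63, adjusted p = 0.123) and Nppb (1.46, adjusted p = 0.442) did not. Desmin, the intermediate filament of muscle (gene Des), was at 2310, 2650 and 2010 CPM against 1510, 1630 and 1490 CPM and missed the threshold (log2 fold change 0.59, adjusted p = 0.0903). The chaperone Cryab (0.38, adjusted p = 0.252) and the Z-disc protein Csrp3 (0.34, adjusted p = 0.24) also had infarcted libraries above all sham libraries without passing.

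A pair of regulators of fuel use fell, while no gene of fatty acid oxidation passed. Ppara stood at 4.61, 3.90 and 2.99 CPM after infarction and at 10.3, 9.51 and 23.3 CPM after sham. All infarcted libraries were below all sham libraries, and the log2 fold change was -1.94 ± 0.43 (SE, adjusted p = 0.0391), or 3.84-fold lower. Ppargc1b, a coactivator of nuclear receptors that drives mitochondrial genes, stood at 141, 138 and 125 CPM against 346, 208 and 328 CPM (log2 fold change -1.13 ± 0.25 SE, adjusted p = 0.0391). Its relative Ppargc1a was at 34.2, 35.3 and 34.9 CPM against 54.7, 50.1 and 123 CPM and did not pass (log2 fold change -1.15 ± 0.33 SE, adjusted p = 0.0998); sham library 3 was by far its highest. Without sham library 2 it passed (-1.38, adjusted p = 0.013).

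Of 35 PPAR and metabolic regulators tested these 2 fell (0.992% of all genes did) and none rose, with a median log2 fold change of 0.00. Of 48 fatty acid oxidation genes none rose or fell at the threshold (24 positive, median 0.01). Members with the smallest p pointed both ways: the dehydrogenase Acadm and the fatty acid transporter Slc27a1 had log2 fold changes of 0.60 and 0.70 (adjusted p = 0.142 and 0.171), and the isomerase Eci1 one of -0.46 (adjusted p = 0.26). Of 81 genes of oxidative phosphorylation, none of them from the mitochondrial genome, only Ndufb2, a subunit of complex I, fell, from 1480, 927 and 1170 CPM after sham to 593, 668 and 768 CPM (log2 fold change -0.82 ± 0.17 SE, adjusted p = 0.0391); the list's median was -0.05. Of 48 genes of glycolysis, glycogen and pyruvate use none passed. The log2 fold change of hexokinase 2 (Hk2), which traps glucose in the cell, was -0.92 (adjusted p = 0.0649), and Oxct1, which opens the use of ketone bodies, one of -0.73 (adjusted p = 0.0633). Both were lower in every infarcted library than in any sham library, and both passed without sham library 2 (-1.11 and -0.84, adjusted p = 0.00542 and 0.0117).

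Regulators of chromatin had more fallen members than any other of the 47 gene lists. Of 78 tested, 13 fell (0.992% of all genes did) and none rose. Of the 78, 37 had every infarcted library below every sham library (10.7% of all genes did), 18 had a positive log2 fold change, and the median was -0.51 against -0.02. The list was chosen with earlier results of these data known, so that its count is no independent evidence. By library, the median deviation was -0.29, -0.38 and -0.11 after infarction and 0.26, 0.10 and 0.37 after sham, with sham library 2 again the sham library nearest the infarcted group. The number that fell was 29 without sham library 2, 0 without sham library 3, 28 with DESeq2 and 7 after trends with transcript length and GC content were removed. Over all genes 503, 0, 374 and 67 fell in these 4 settings, against 113 of 11393 in the main fit. The list's median lay between -0.54 and -0.41 in them.

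The chromatin genes that fell were of several kinds. Chd2, a remodeller that slides nucleosomes at active genes, had the joint smallest adjusted p of the comparison. It stood at 23.6, 26.4 and 30.8 CPM after infarction and at 69.1, 52.3 and 91.7 CPM after sham (log2 fold change -1.41 ± 0.23 SE, adjusted p = 0.0254). The remodellers Smarca5 (the ISWI motor), Ino80 and Chd6 and the BAF subunit Smarcc1 had log2 fold changes of -1.28, -1.63, -1.0 and -1.15. Smarca5 stood at 23.2, 19.5 and 35.4 CPM against 60.8, 36.3 and 90.7 CPM, so that its groups only just stayed apart; it also has 6 near-identical copies in the annotation. Among genes linked to histone methylation, Kmt2c, which marks enhancers, Kmt2e, Setd5 and the demethylase Kdm5a fell with log2 fold changes of -1.05, -1.13, -1.51 and -1.64. The others were Baz2b (-1.74), Arid4b (-1.73), the HP1-binding protein Lrif1 (-1.78) and Phf3 (-1.18).

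Of 19 genes of cohesin, condensin and related complexes, which hold chromosomes together and shape chromatin loops, 3 fell (0.992% of all genes did) and none rose. Smc3, a core subunit of the cohesin ring, stood at 14.7, 9.76 and 12.5 CPM after infarction and at 32.8, 25 and 70.7 CPM after sham. All infarcted libraries were lower, sham library 3 was the highest, and the log2 fold change was -1.83 ± 0.36 (SE, adjusted p = 0.0391) with the range -2.10 to -1.19 when each of the 6 libraries was left out. Nipbl, which loads cohesin onto DNA, and Smc4, a subunit of condensin, fell with log2 fold changes of -1.02 and -1.42 (adjusted p = 0.0449 and 0.047). Of the 19, 5 were positive and the median was -0.44. The number that fell was 5 without sham library 2 and 0 without sham library 3, and after length and GC trends were removed 1 fell and the median was -0.16. Over all genes 503, 0 and 67 fell in these settings. The cohesin ring subunit Rad21 did not pass (-0.67, adjusted p = 0.0897), but did without sham library 2 (-0.77, adjusted p = 0.0318).

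Messages for RNA processing made up another set. Srrm2, a large scaffold of nuclear speckles and the spliceosome, stood at 133, 147 and 173 CPM after infarction and at 316, 267 and 344 CPM after sham, groups that did not overlap (log2 fold change -1.03 ± 0.19 SE, adjusted p = 0.0391). Of 70 splicing genes tested 4 fell (0.992% of all genes did) and none rose: Srrm2, the splicing factor Cdc40 (-1.78), the RNA-binding protein Rbm27 (-1.81) and Rbfox1 (-1.01), which sets muscle and neuronal exon choice. The list's median was -0.25, 21 members were positive, and 18 had infarcted libraries below all sham libraries (10.7% of all genes did). The number that fell was 14 without sham library 2, 0 without sham library 3 and 15 with DESeq2. Over all genes 503, 0 and 374 fell in these settings. Of 44 DEAD-box and related helicases Dhx15, Ddx27 and Ddx55 fell (-1.24, -1.40 and -1.53; 0.992% of all genes fell) while the list's median was 0.00 and 22 were positive. Without sham library 2, 8 of them fell, and without sham library 3 none did. Pcf11, which ends transcription at the poly(A) site, fell by 1.58 on the log2 scale (adjusted p = 0.042), and so did the splice-site factor Zrsr1 (-1.53) and the stress granule protein Prrc2c (-1.65, adjusted p = 0.0391 for both).

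Eif5, which triggers GTP hydrolysis when the start codon is found, stood at 228, 229 and 299 CPM after infarction and at 678, 428 and 592 CPM after sham. It was the only one of 58 translation factors to fall, with a log2 fold change of -1.16 ± 0.24 (SE, adjusted p = 0.0391). Of 83 cytosolic ribosomal protein genes none passed (27 positive, median -0.14), and of 75 mitochondrial ribosomal protein genes none passed (median -0.03). Of 45 proteasome genes only Psma7, an alpha subunit of the core particle, fell (-1.10, adjusted p = 0.0449).

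Of the fallen genes with the lowest fold changes, taken above a mean log2 CPM of 3, several belonged to none of the lists. Kin, a DNA- and RNA-binding nuclear protein, stood at 3.89, 4.20 and 4.32 CPM after infarction and at 9.65, 12.5 and 31.9 CPM after sham (log2 fold change -2.17 ± 0.41 SE, adjusted p = 0.0391). Sham library 3 was its highest by far, and leaving out single libraries moved the fold change between -2.45 and -1.39. Capn15, a calpain-family protease, stood at 2.88, 2.85 and 3.99 CPM against 19.9, 7.51 and 8.36 CPM, with sham library 1 the highest (log2 fold change -1.83). Sbno1, a helicase-like nuclear protein, shared the smallest adjusted p with Chd2. Its levels were 28.4, 33.8 and 30.3 CPM against 69.5, 70.3 and 106 CPM (log2 fold change -1.42 ± 0.22 SE, adjusted p = 0.0254). Tox3, Mtf2, Ccdc174, Dnajc21 and the zinc finger genes Zfp318 and Zfp91 fell with log2 fold changes of -1.74, -1.54, -1.58, -1.53, -1.57 and -0.99. Of 229 genes named Zfp for their zinc fingers these last 2 fell (0.992% of all genes did), none rose, and the median was -0.12.

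Single genes of signalling and adhesion fell too. Gsk3b, the kinase that restrains glycogen synthase and beta-catenin, stood at 26.8, 34.5 and 40.6 CPM after infarction and at 89.1, 70.6 and 127 CPM after sham (log2 fold change -1.5 ± 0.30 SE, adjusted p = 0.0391). The highest infarcted library was well under the lowest sham library. Fermt2, the integrin activator kindlin-2 of costameres and intercalated discs, stood at 130, 163 and 165 CPM against 360, 276 and 357 CPM (-1.12 ± 0.22 SE, adjusted p = 0.0391). It fell while Plec rose among 35 costamere and intercalated disc genes, whose median was -0.04. Pde4a, which breaks down cyclic AMP, fell by 0.93 on the log2 scale as the only one of 31 adrenergic and cyclic AMP genes (adjusted p = 0.0398). Map4k4, a kinase that acts on the Hippo pathway, fell by 0.97 as the only one of 25 Hippo and YAP genes. The Hippo effector Yap1 stood at 44.3, 34.2 and 28.6 CPM against 20.9, 18.8 and 24.6 CPM and did not pass (log2 fold change 0.73, adjusted p = 0.164). Sav1 (-0.16) and Park2 (-0.21), which encodes the ubiquitin ligase Parkin, overlapped between the groups, with adjusted p of 0.926 and 0.843.

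None of the genes that define the working cardiomyocyte passed. Of 16 cardiomyocyte identity genes none passed (median 0.08), nor did any of 38 sarcomere and Z-disc genes (median 0.10) or 40 ion channel genes (median -0.12). The calcium release channel Ryr2 stood at 774, 964 and 1150 CPM after infarction and at 2290, 943 and 2500 CPM after sham, so that sham library 2 fell among the infarcted libraries (log2 fold change -0.99, adjusted p = 0.199). Mef2a and Mef2c, transcription factors of muscle genes, were lower in every infarcted library than in any sham library and just missed the threshold (-0.62 and -0.94, adjusted p = 0.0526 for both). Without sham library 2, Ryr2 (-1.32), Mef2a (-0.69) and Mef2c (-1.16) passed, with adjusted p of 0.00213, 0.015 and 0.00198. Without sham library 3 none of these passed, as no gene did. A p that misses the threshold does not show that these genes did not differ.

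Markers of the other cells of the heart were present in the TRAP RNA and varied with sham library 2. Of 47 fibroblast and matrix genes none passed, 31 were positive and the median was 0.16. Comp, a matrix protein of scars and cartilage, stood at 118, 90.5 and 140 CPM after infarction and at 8.04, 43.3 and 6.68 CPM after sham, groups that did not overlap (log2 fold change 2.63 ± 0.81 SE, adjusted p = 0.174). Without sham library 2 the fibroblast and matrix median was 0.92, 14 of 48 tested rose, and Comp passed at 4.01 (adjusted p = 0.0134). Over all genes 125 rose without that library. Genes of MHC class I and the interferon response had a summed level of 1010, 1010 and 1380 CPM after infarction and of 770, 2020 and 758 CPM after sham; their median was -0.36 and, without sham library 2, 0.41. Of 31 myeloid and T cell genes none passed (median -0.01; summed level 861 to 1100 CPM after infarction, 605 to 1430 CPM after sham), and without sham library 2 the median was 0.40 and 2 of 32 tested rose. Of 26 endothelial genes only Flt1, the VEGF receptor 1, fell. It stood at 119, 181 and 203 CPM against 333, 288 and 310 CPM (log2 fold change -0.89 ± 0.20 SE, adjusted p = 0.0391), while the list's median was 0.04 and its summed level overlapped, with 991 to 1390 CPM after infarction and 1230 to 1660 CPM after sham. In bulk RNA fewer cells of a type and less RNA per cell cannot be told apart.

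Early response genes were uneven. Of 18 immediate early genes none passed, 13 were positive and the median was 0.51, but the list's median deviation ran from -0.20 to 0.91 over the infarcted libraries and from -0.54 to 0.35 over the sham libraries. The median was 1.09 without sham library 2, where 1 of 19 tested rose (125 over all genes), and 0.00 without infarcted library 3. Dusp1, a phosphatase that shuts off MAP kinases, stood at 16.6, 9.46 and 23.3 CPM against 2.89, 5.01 and 8.56 CPM (log2 fold change 1.47, adjusted p = 0.0618). Cyr61, a secreted matrix protein and a known target of YAP, stood at 15.4, 7.5 and 13.3 CPM against 3.22, 6.51 and 3.95 CPM (1.41, adjusted p = 0.0724), and passed without sham library 2 (1.7, adjusted p = 0.0186). Both had infarcted libraries above all sham libraries.

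**Figure D3:**
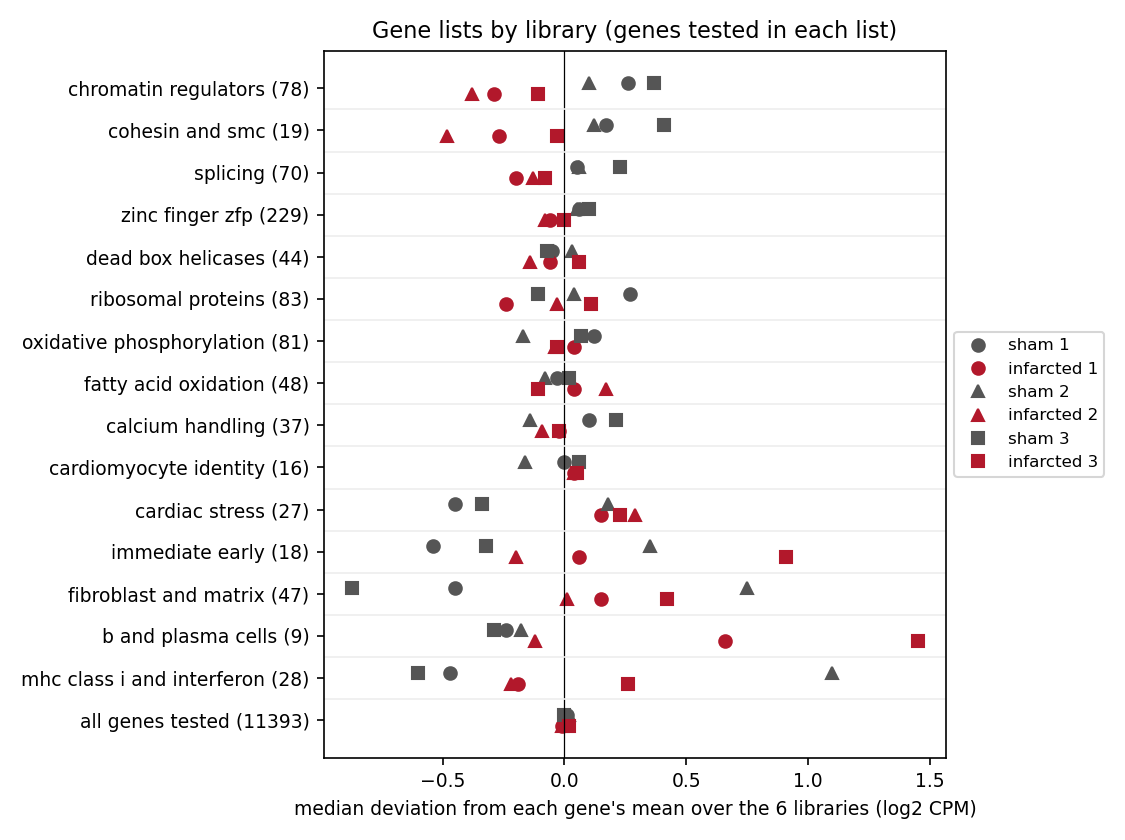
Median deviation of the tested genes of each list from their own mean over the 6 control TRAP libraries (log2 CPM, horizontal axis), 1 symbol a library (red infarcted, grey sham) and 1 row a gene list. Chromatin regulators lay between -0.38 and -0.11 after infarction and between 0.10 and 0.37 after sham, whereas sham library 2 (grey triangle) sat with or beyond the infarcted libraries for cardiac stress (0.18), fibroblast (0.75) and MHC class I genes (1.10).

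The genes that fell were long and rich in A and T. Their longest annotated transcripts had a median length of 4851 bases and a median GC content of 46.4%, against 3366 bases and 49.9% over all genes tested and 1794 bases and 55.3% for the 10 that rose. Across 11331 annotated genes, which are not independent replicates, the rank correlation of the log2 fold change was -0.144 with transcript length and 0.283 with GC content. After both trends were removed from the counts, 5 genes rose and 67 fell, and 69 of the 123 still passed. Rrad, Cfl1, Gmpr, Ndufb2 and Flt1 were among those that no longer passed. Sham library 2 was the lowest sham library in 103 of the 113 fallen genes (4023 of all 11393) and sham library 3 the highest in 78 (3823 of all). The part of RNA quality or of library preparation in the falls was not tested. Of the 123 genes, 16 have a near-identical copy in the annotation, 12 share exon sequence with a gene on the same strand and 46 with one on the opposite strand; whether the counting used strand is not given in the sources used here.

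The genes that passed in control had the same direction in the libraries labelled Salv cKO, which share none with the control mice. There 861 genes rose (7.56%) and 1208 fell (10.6%) after infarction. All 10 genes that rose in control were positive in Salv cKO and 7 of them passed there; all 113 that fell were negative and 93 passed. Over all 11393 genes 66.5% had the same sign in both genotypes, and the fold changes correlated across genes with a Pearson coefficient of 0.458 and a Spearman coefficient of 0.453, given as a description since genes are not independent and the libraries of both genotypes share 1 fit. The median log2 fold change of the 113 genes was -1.19 in control and -1.29 in Salv cKO. Of the 78 chromatin regulators 32 fell and 1 rose in Salv cKO, with a median of -0.60. The splicing and cohesin lists, with medians of -0.25 and -0.44 in control, had medians of 0.06 and -0.09 there. Of 70 splicing genes 12 fell and 6 rose, and of 19 genes of cohesin and related complexes 3 fell and 1 rose.

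The difference between the responses of both genotypes was tested directly, and no gene passed (0 of 11393, 0%, in edgeR's quasi-likelihood test). The smallest adjusted p was 0.0796, 1435 genes had an unadjusted p below 0.05, DESeq2 called 96 genes and edgeR without the filter on low counts 160. Genes that passed in one genotype alone were therefore not shown to differ. The log2 fold change of Ppara was -1.94 in control and -0.59 in Salv cKO (adjusted p = 0.371 there), Ighm one of 2.01 against 0.54 (adjusted p = 0.45), and Plec one of 1.07 against 0.31 (adjusted p = 0.392). Yap1 was 0.73 in control and rose by 1.25 in Salv cKO (adjusted p = 0.00304). Sprr1a had 67 counts in the infarcted and 0 in the sham Salv cKO libraries. The exact 95% interval of the pooled ratio began at 10.9 and covers counting error only. The infarcted Salv cKO libraries varied, with 2.76 ± 2.64 CPM (SD), and the gene was detected in that group alone. Among the 123 genes the smallest adjusted p of the difference was 0.182.

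**Figure D4:**
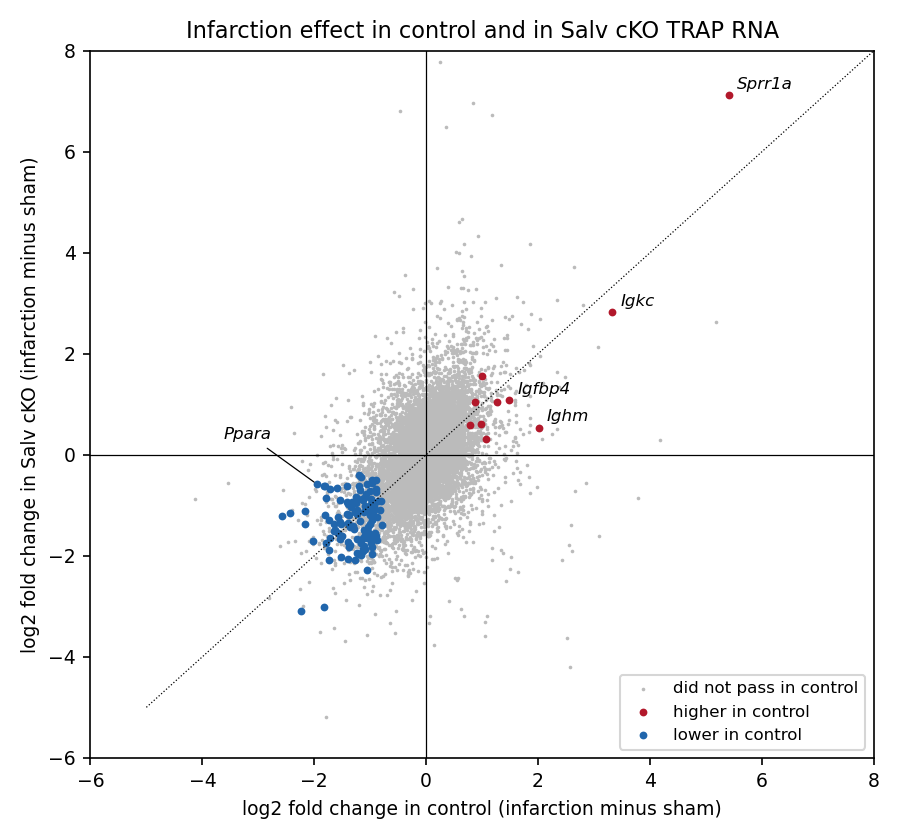
Log2 fold change of infarction against sham in Salv cKO TRAP RNA (vertical axis) against that in control TRAP RNA (horizontal axis), 1 point a gene, with the line of equality dotted and 2 genes outside the axes. All 113 genes that fell in control (blue) lay below 0 in Salv cKO, and all 10 that rose (red) lay above 0.

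The number of genes past the threshold depended on single libraries. It was 123 with all libraries, 0 without infarcted library 1 or without sham library 3, 1 without infarcted library 2, 163 without infarcted library 3, 6 without sham library 1 and 628 without sham library 2. Leaving out a Salv cKO library, which changes the shared estimate of spread and also the scaling and the filter, left between 2 and 232 genes, the lowest without infarcted Salv cKO library 1 and 3 without sham Salv cKO library 1. In every one of these fits the 123 genes kept their direction and an unadjusted p below 0.05. They were chosen for small p in the fit of all libraries, most of which each of these fits shares. Their kept direction and p are therefore no independent support.

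**Figure D5:**
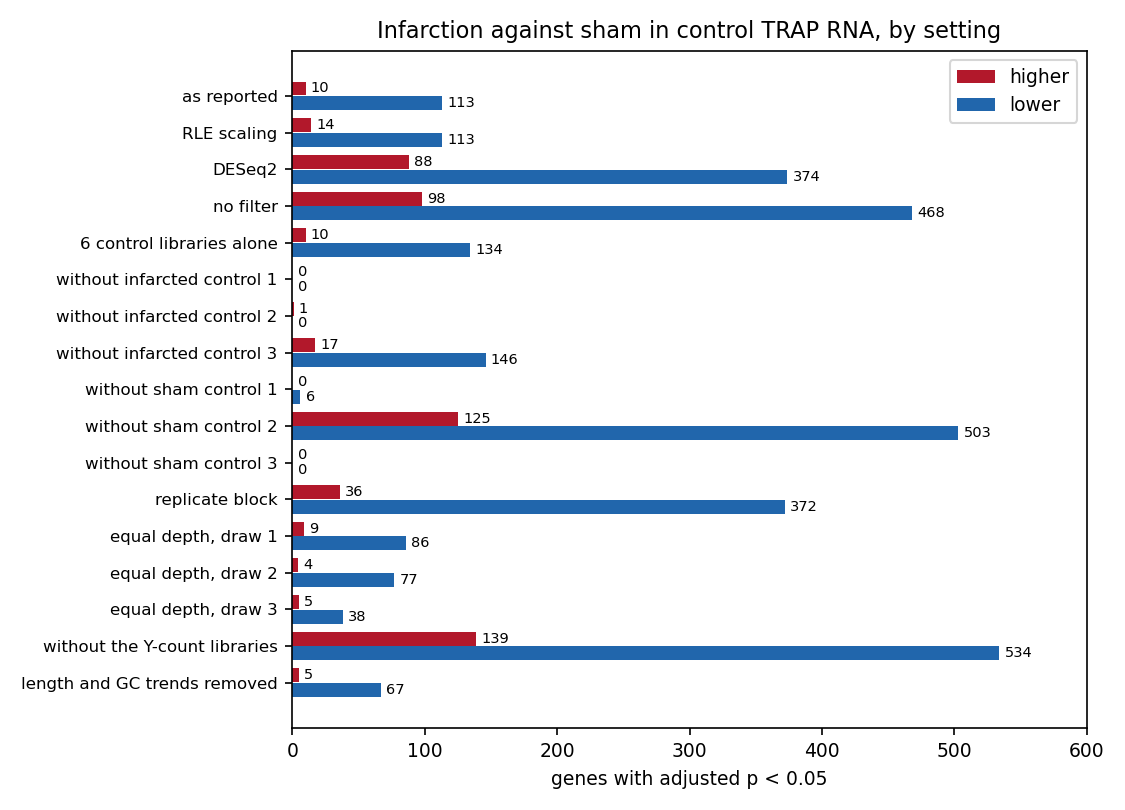
Number of genes that rose (red) or fell (blue) at an adjusted p below 0.05 in control TRAP RNA (horizontal axis) under each setting (rows). The bars are empty or nearly so without infarcted library 1 or 2 or sham library 1 or 3, and reach 125 and 503 without sham library 2.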

How the data were processed

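The authors deposited 1 table of raw counts per gene for all 18 libraries; per the submitters' processing notes STAR 2.5, mm10 and DESeq2 were used, while the counting tool, annotation and strandedness are not given in any label or note used here. The 12 TRAP libraries were fitted together with 4 group means in edgeR 4.0.16 (R 4.3.3; TMM scaling, filterByExpr, robust quasi-likelihood test, two-sided, Benjamini-Hochberg over 11393 genes), and the contrast was infarcted minus sham in control mice. Standard errors were taken from the log2 fold change and the F statistic. Levels of single genes in TRAP RNA are TMM-scaled CPM. Summed levels and levels in total RNA are CPM of the library total. A floor of 3 counts and all intervals on counts cover counting error only. Lists were described by counts and medians, without a test. The members and lists were chosen with earlier results of these data known.

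Genes were named by rule: 11 genes of interest, every passing gene that was higher and up to 25 of the lowest passing genes with non-overlapping libraries and a mean log2 CPM of 3 or more, and from each list its passing members and up to 4 members with the smallest p. Not all genes so chosen are printed, and 1 of the lowest is not reported here. On simulated counts for this comparison over 11393 genes, 27% of 100 genes changed 2-fold and 78% of 100 changed 4-fold were recovered. Of 110 calls on the simulated counts, 4.55% were false. These shares describe the simulated counts only and give no share of false calls among the genes that passed here. Whether they hold with an outlying library, or with trends in length and GC content, was not tested. Alternatives were RLE scaling, DESeq2 1.42.0, no filter on low counts, the control libraries alone, each library left out, a replicate block, libraries thinned to equal depth, removal of the libraries with Y chromosome counts, and removal of trends with transcript length and GC content. Same-numbered control libraries did not deviate together, and the replicate numbers were not used as pairs. Transcript lengths, copies and overlaps came from GENCODE M21 and promoter windows from RefSeq.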

Additional observations from a re-analysis of the deposited data

How the results depend on the processing

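The direction of all 123 genes was the same in every setting that tested them, but the number past the threshold was not stable. The 123 genes were chosen from these same libraries, so their kept direction is no independent support. Against 123 (10 higher, 113 lower), DESeq2 called 462 (88 and 374), the fit without a filter on low counts 566 (98 and 468), and leaving out both libraries that held Y chromosome counts gave 673 (139 and 534). With length and GC trends removed 72 passed (5 and 67). Thinning all TRAP libraries to 3240871 counts gave 95 (9 and 86), 81 (4 and 77) and 43 (5 and 38) in draws 1, 2 and 3. Leaving out single libraries gave between 0 and 628 genes, 0 to 125 higher and 0 to 503 lower. The test of the difference between genotypes, 0 in the main fit, gave 96 with DESeq2, 160 without the filter, 3 with length and GC trends removed and 0 to 18 with single libraries left out. The cause of these shifts was not tested, other than that fewer counts or libraries enter some fits.

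With the replicate number as a block, 408 genes passed (36 higher, 372 lower). Among the control libraries, the correlations of the deviations of same-numbered libraries were -0.0204, -0.0122 and -0.0568. There 0 of 6 libraries correlated best with their own number, so no pairing was seen among them. The Salv cKO libraries, which the block also covers, were not checked in this way.

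The 4 genes Myh6, Park2, Sav1 and Xbp1, whose groups overlapped, changed sign. Myh6 ran from -0.216 (without sham library 3) to 0.588 (without sham library 1) and was -0.007 without infarcted library 1. Park2 ran from -0.501 (without infarcted library 3) to 0.121 (without infarcted library 2) and was 0.092 with length and GC trends removed. Sav1 was 0.131 and 0.002 in draws 2 and 3 at equal depth and 0.043 with length and GC trends removed. Xbp1 ran from -0.324 (without infarcted library 1) to 0.031 (without sham library 3).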
